A study of Gallus gallus with 3 samples.

Results

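This account concerns 94 transcripts of chick somites whose level was higher in one library, that of somites given a miR-206 antagonist by injection, than in either of the other 2 libraries of the study. They were picked from 15878 listed Ensembl chicken transcript identifiers by their own levels. Levels are given in CPM, that is, counts scaled to a common library size with the TMM method of edgeR. A transcript was taken when it averaged at least 5 CPM over the 3 libraries and its antagomiR-206 level was at least 1.5 times that of both controls. The 2 controls also had to lie less than 1.5-fold apart. All folds in this rule were taken after adding 1 CPM to each level. The ratios of the antagomiR-206 library to its controls therefore chose the members, and they are given below as a description, with no test.

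Somites are the paired blocks of embryonic mesoderm from which trunk skeletal muscle, the axial skeleton and part of the dermis form. All 3 libraries came from chick embryos (Gallus gallus) at Hamburger-Hamilton stages 14 to 16. The first was made from somites injected with antagomiR-206. The second was made from somites injected with a scrambled antagomiR. The third was made from somites of the opposite side, which were not injected. The labels give neither the number of embryos per library nor which injected embryos the opposite side was taken from. Every group is 1 library, so no difference below has a replicate check and no p-value is given.

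MicroRNAs are short RNAs that guide a silencing complex to messenger RNAs, mostly through pairing of a short stretch near their start, the seed, with sites in the 3' untranslated region. The paired messenger is translated less and is often degraded. miR-206 belongs to a family of muscle microRNAs together with miR-1, with which it shares its seed, and in the chick embryo it is found in the developing muscle of the somite. An antagomiR is a chemically modified antisense oligonucleotide that binds a mature microRNA and keeps it from its targets. The comparison with the scrambled oligonucleotide asks what differs in the presence of this antagonist beyond an injection. The comparison with the opposite side sets both against somites that were not themselves injected.

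The deposited table names transcripts by identifier only. The RefSeq table of 25635 chicken genes used here holds no Ensembl identifiers. None of the 94 (0 of 94), and none of all those listed (0 of 15878), could therefore be matched to it. This does not mean that the transcripts are absent from the chicken annotation. Gene names, functions, untranslated regions and seed sites of the members were therefore not analysed here, nor were marker genes of muscle or of neighbouring tissues. Only 2 members are named by identifier and the others are given by their values. The total was 16496794 counts with antagomiR-206, 20176114 with scrambled and 18332350 without injection. Counting intervals below are exact 95% binomial intervals of the plain CPM ratio of 2 libraries. They cover counting error only, and reads copied by PCR are not independent molecules.

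Across the 94 transcripts, the median level was 18.5 CPM with antagomiR-206, 11.0 CPM with scrambled and 10.1 CPM without injection. The levels ran from 7.27 to 681 CPM with antagomiR-206, from 3.14 to 272 CPM with scrambled and from 3.08 to 379 CPM in non-injected somites. The members thus cover a wide range of abundance, and the 2 controls lay close together while the antagomiR-206 library stood above both. The median ratio on the log2(CPM + 1) scale was 0.69 for antagomiR-206 over scrambled, against -0.01 over all 10844 transcripts that averaged at least 5 CPM. For antagomiR-206 over non-injected it was 0.82, against 0.01 over all those tested. In plain CPM the median fold was 1.66 over scrambled and 1.85 over non-injected somites. These shifts follow from the rule, so they describe the size of the differences and no more.

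**Figure D1:**
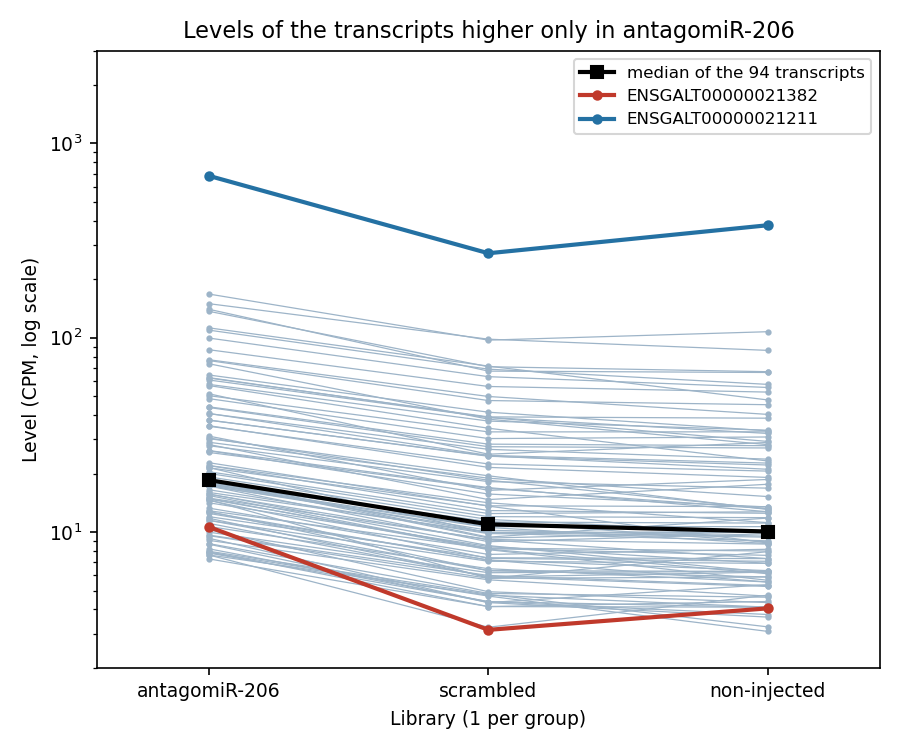
Level of each of the 94 transcripts (CPM, log scale) in each library (antagomiR-206 left, scrambled centre, non-injected right), with 1 thin line per transcript and the median in black. The medians are 18.5, 11.0 and 10.1 CPM from left to right. The coloured lines are ENSGALT00000021382, with the largest ratio, and ENSGALT00000021211, with the highest level.

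The 94 made up 0.867% of the 10844 transcripts tested. Of those tested, 1.76% were at least 1.5-fold higher in antagomiR-206 than in scrambled somites, which is 191 transcripts, and 8.9% were so against non-injected somites, which is 965. Both conditions were met by 101 transcripts, 0.931% of those tested. The condition that the controls lie less than 1.5-fold apart removed 7 of these. The most abundant of the 7 stood at 1441 CPM with antagomiR-206, 455 CPM with scrambled and 708 CPM in non-injected somites. Its antagomiR-206 level was past the threshold against both, and its scrambled level lay too far below the non-injected one for the rule. Of the 7, 5 had the scrambled level above the non-injected one and 2 had it below. Some of the 5 had nearly the same counts with antagomiR-206, scrambled and no injection (343, 229 and 122, then 342, 229 and 122, then 343, 231 and 122). The 5 identifiers therefore need not be separate observations.

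**Figure D2:**
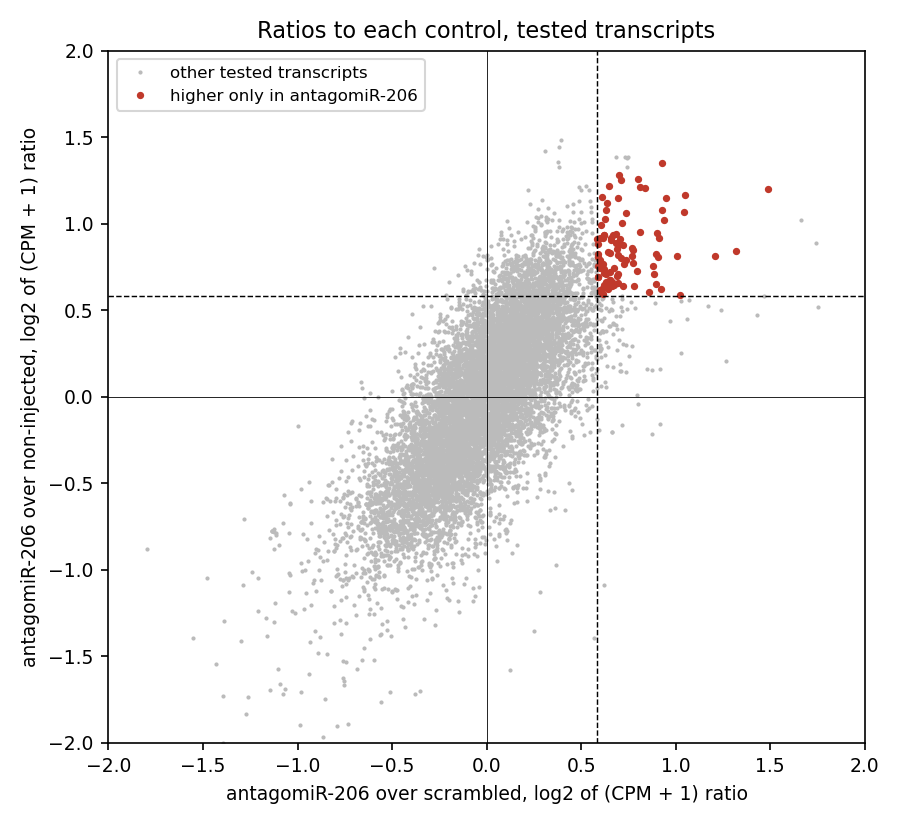
Ratio of antagomiR-206 to scrambled (horizontal) and to non-injected somites (vertical), as log2 of the ratio of CPM + 1, for the tested transcripts, with the 94 in red and 19 transcripts beyond the axes not drawn. Both axes share the antagomiR-206 library, so their slope is no result. The dashed lines mark 1.5-fold, and grey points past both lines had controls at least 1.5-fold apart.

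Most members stood a small distance above the threshold. The nearer of the 2 controls was less than 1.6-fold below antagomiR-206 for 52 of the 94, between 1.6-fold and 2-fold for 39, and at least 2-fold for 3, on the CPM + 1 scale. Those 3 were 0.0277% of the tested transcripts. Taken singly, 7 members were at least 2-fold above scrambled and 20 were at least 2-fold above non-injected somites. The shares of all tested transcripts past 2-fold against a single control were not computed, so these counts are no trait of the list. Over all those tested, the log2(CPM + 1) ratio also spread more widely against non-injected somites (quartiles -0.34 and 0.32) than against scrambled (-0.21 and 0.18). The last 3 transcripts inside the threshold had smaller folds of 1.504, 1.503 and 1.501, and the first 3 outside it had 1.496, 1.496 and 1.496. A further 120 transcripts with similar controls had a smaller fold between 1.4 and 1.5. No gap in the values separates the members from the rest, so the edge of the list is set by the threshold alone.

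Counting error did not reach equal levels for any member, and for most members it reached 1.5-fold in plain CPM against at least 1 control. The counting intervals of both folds lay wholly above 1 for all 94 members, which the rule makes nearly certain at these depths. They lay wholly above 1.5 in plain CPM for 16 members. For rare transcripts a fold of 1.5 in plain CPM is itself a lower cutoff than the rule's 1.5-fold on CPM + 1. Against scrambled alone an interval wholly above 1.5 was found for 25 members and against non-injected alone for 55. How many of all tested transcripts met these conditions was not computed, and the same ratios chose the members. The counts thus describe counting error within the list and do not set it apart from other transcripts. The counts behind a member ran from 126 to 11804 with antagomiR-206, from 63 to 5465 with scrambled and from 54 to 6654 in non-injected somites. At least 100 counts in every library were found for 75 members.

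ENSGALT00000021382 had the largest ratio to its nearer control. It had 184 counts with antagomiR-206, 63 with scrambled and 71 in non-injected somites, which is 10.6, 3.14 and 4.05 CPM in the same order. The antagomiR-206 level was the highest, as the rule requires, and the 2 controls lay within counting error of each other. Both controls were under 5 CPM, so the transcript passed the filter on the mean through its antagomiR-206 level. The fold in plain CPM was 3.39 over scrambled (95% counting interval 2.53 to 4.58) and 2.62 over non-injected somites (1.98 to 3.501). With 1 CPM added to each level, the smaller of the folds of ENSGALT00000021382 was 2.30, below the plain fold because the transcript is rare.

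The other 2 members at least 2-fold above both controls differed greatly in abundance. One was at 21.5 CPM with antagomiR-206, 9.86 CPM with scrambled and 9.01 CPM in non-injected somites, with folds of 2.18 (1.83 to 2.60) over scrambled and 2.38 (1.97 to 2.89) over non-injected. The other was at 140.1 CPM with antagomiR-206, 67.3 CPM with scrambled and 66.3 CPM in non-injected somites, with folds of 2.08 (1.95 to 2.23) and 2.12 (1.97 to 2.27). In both, the controls were almost level, and the scrambled over non-injected fold of the more abundant one was 1.02 (0.939 to 1.10). A further member had nearly the same profile, at 136.8 CPM with antagomiR-206, 70.9 CPM with scrambled and 66.9 CPM in non-injected somites. Its identifier and that of the member at 140.1 CPM need not be separate observations.

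ENSGALT00000021211 was by far the most abundant member. It had 11804 counts with antagomiR-206, 5465 with scrambled and 6654 in non-injected somites, which is 681, 272 and 379 CPM in that order. Its fold was 2.503 over scrambled (2.42 to 2.59) and 1.796 over non-injected somites (1.74 to 1.85). Here the controls were not level. The scrambled over non-injected fold was 0.717 (0.692 to 0.744), the lowest ratio of the controls among the members on the log2(CPM + 1) scale, at -0.48. Next in abundance came a member at 167.9 CPM with antagomiR-206, 97.2 CPM with scrambled and 107.4 CPM in non-injected somites, so ENSGALT00000021211 stood well apart from the rest of the list.

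By level in the antagomiR-206 library, 7 members had at least 100 CPM, 25 had from 30 to under 100 CPM, 28 from 15 to under 30 CPM, 19 from 10 to under 15 CPM and 15 under 10 CPM. Among the 7 most abundant, the median was 140.1 CPM with antagomiR-206, 71.5 CPM with scrambled and 66.9 CPM in non-injected somites. Among the 25 that followed, it was 50.3, 30.3 and 28.2 CPM in the same order. Among the 15 least abundant, it was 8.20, 4.68 and 4.39 CPM. The ratios in these classes all lie above the floor that the rule sets and are given as a description. The median log2(CPM + 1) ratio over scrambled was 0.78 in the 7 most abundant, 0.65 in the 25, 0.69 in the 28, 0.77 in the 19 and 0.69 in the 15 least abundant. Over non-injected somites the medians were 0.92, 0.81, 0.80, 0.86 and 0.76 in the same order.

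The members were, however, unevenly spread over abundance. With the 10844 tested transcripts divided into 4 classes of 2711 by mean CPM, 56 members (59.6%) fell in the lowest class, from 5.00 to 16.6 CPM. The next classes held 19, 14 and 5 members. The list therefore consists mostly of rare transcripts, which carry the larger counting error. Its median of the mean CPM was 13.3, against 37.8 over all those tested. Transcripts lower only in antagomiR-206, picked by the same rule turned round, had 100 of 248 (40.3%) in the lowest class. Those higher only in non-injected somites had 94 of 199 (47.2%) there, and those lower only in non-injected somites 54 of 191 (28.3%). The filter on the mean was passed by 12 members with under 5 CPM in both controls, through their antagomiR-206 level. A further 56 transcripts met the fold conditions but averaged under 5 CPM and are not members.

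The 94 transcripts together took 0.396% of all counts with antagomiR-206 (95% Wilson interval 0.393 to 0.399), 0.210% with scrambled (0.208 to 0.212) and 0.195% without injection (0.193 to 0.198). Without ENSGALT00000021211 the shares were 0.325%, 0.183% and 0.159% in the same order. In summed level the list stood at 3772 CPM with antagomiR-206, 2114 CPM with scrambled and 2043 CPM in non-injected somites. These transcripts are thus a small part of the RNA measured in each library, and the highest of them carried a sizeable part of the sum. Their larger share and sum with antagomiR-206 follow from the rule that chose them and are no separate result. The intervals of the shares cover counting error only and test no difference between the libraries. In bulk tissue, a higher level in each cell and a larger share of cells that hold the transcript cannot be told apart.

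The 2 controls were compared within the list, where the rule bounds how far apart they lie and does not state their order. The same control levels chose the members, however, so their order in the list is not independent of that choice. The scrambled level was above the non-injected level for 71 of the 94 members (75.5%) and below it for 23. Over all 10270 tested transcripts with controls less than 1.5-fold apart, it was above for 52.4%. The median log2(CPM + 1) ratio of scrambled over non-injected was 0.10 in the list, against 0.02 over those 10270. For most members, then, the scrambled library was the nearer control and set whether they were taken. This count describes 1 pair of libraries and was given no test.

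By counting error, the members fell into 3 patterns of the controls. For 63 members the interval of scrambled over non-injected held 1, so counting error did not tell the controls apart. This does not make the controls equal, since the plain folds of these members ran from 0.775 to 1.297. Their median levels were 16.5 CPM with antagomiR-206, 9.31 CPM with scrambled and 9.01 CPM in non-injected somites. For 24 members the interval lay above 1. Their levels formed a step, highest in antagomiR-206, intermediate in scrambled and lowest in non-injected somites. This order follows from the rule and from the split by the controls, so it is no separate result. The medians of the 24 were 30.4, 19.2 and 14.2 CPM in that order, with a median log2(CPM + 1) ratio of 0.64 over scrambled and 1.01 over non-injected somites. For 7 members, ENSGALT00000021211 among them, the interval lay below 1 and the scrambled library was the lowest of the 3. Their median ratio was 1.01 over scrambled and 0.65 over non-injected somites. The split by the controls likewise sets which median ratio is the larger in these 7 and in the 24. An interval that held 1 was found for 67.0% of the members, against 40.6% of the 10270 transcripts. The scrambled level was higher past counting error in 25.5% of the members, against 31.4% of the 10270, and lower past it in 7.45%, against 28.0%. The members are rarer, so their intervals are wider, and the part of depth in these gaps was not tested. The same control levels also chose the members, and the part of that choice in these gaps was not tested either.

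**Figure D3:**
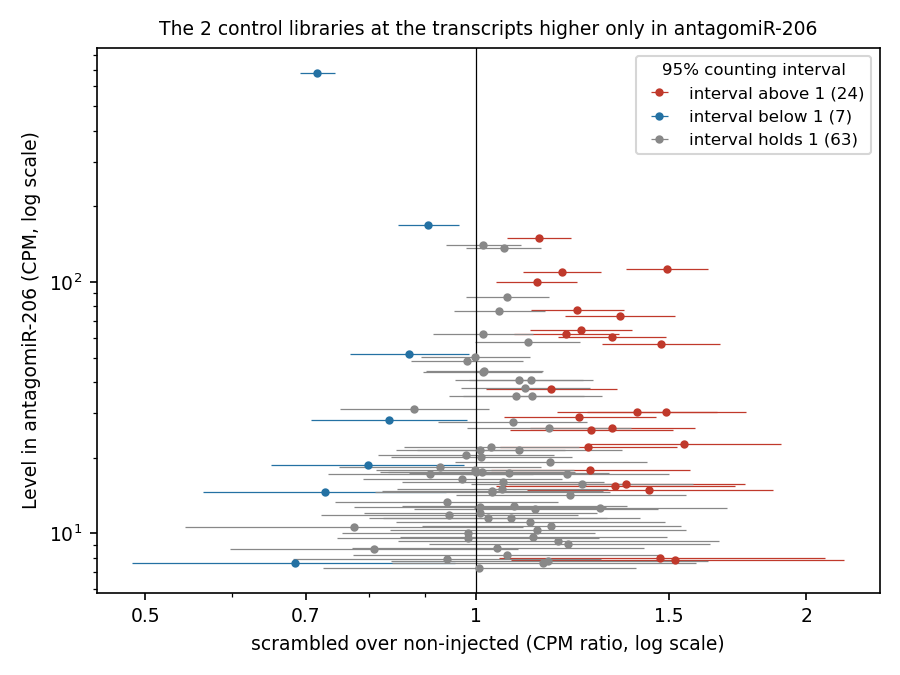
Plain CPM ratio of scrambled over non-injected somites (horizontal, log scale) against the antagomiR-206 level (vertical, CPM, log scale) for the 94 transcripts, with exact 95% counting intervals. The interval lies above 1 for 24 transcripts, below 1 for 7 and holds 1 for 63.

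The step of the 24 is shown by 3 of them, chosen after their values were seen. The member with the largest ratio over non-injected somites had 73.5 CPM with antagomiR-206, 38.1 CPM with scrambled and 28.2 CPM in non-injected somites, a log2(CPM + 1) ratio of 1.35 over non-injected and 0.93 over scrambled. Next came one at 22.7 CPM with antagomiR-206, 13.6 CPM with scrambled and 8.78 CPM in non-injected somites. An abundant example stood at 112.4 CPM with antagomiR-206, 71.5 CPM with scrambled and 47.8 CPM in non-injected somites. The rule itself places the scrambled level nearer to the non-injected than to the antagomiR-206 level on that scale in any such member.

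The same rule was applied in the other direction and to the other libraries as a scale for the 94. Lower only in antagomiR-206 were 248 transcripts (2.29% of those tested). Higher only in scrambled somites were 5 (0.0461%), and lower only in scrambled somites were 20 (0.184%). Higher only in non-injected somites were 199 (1.84%), and lower only in non-injected somites were 191 (1.76%). With TMM the list of 94 was thus shorter than the corresponding list of the non-injected library, and shorter than the list in the opposite direction of its own library. Of the 342 transcripts that differed in antagomiR-206 alone, 27.5% were higher. With library totals in place of TMM the numbers were 186 higher and 140 lower, which is 57.1% higher. DESeq2 size factors gave 105 higher and 222 lower (32.1% higher), and upper quartile scaling gave 91 and 247 (26.9% higher). Which direction is the more frequent thus depended on the scaling, and only library totals turned it round. With library totals the order against the non-injected library also turned round, with 186 higher only in antagomiR-206 and 138 higher only in non-injected somites. That order was kept with DESeq2 size factors (105 and 203) and upper quartile scaling (91 and 241). Library totals moved the median log2 ratio of antagomiR-206 over non-injected, taken over all tested transcripts, to 0.14, against 0.01 with TMM.

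**Figure D4:**
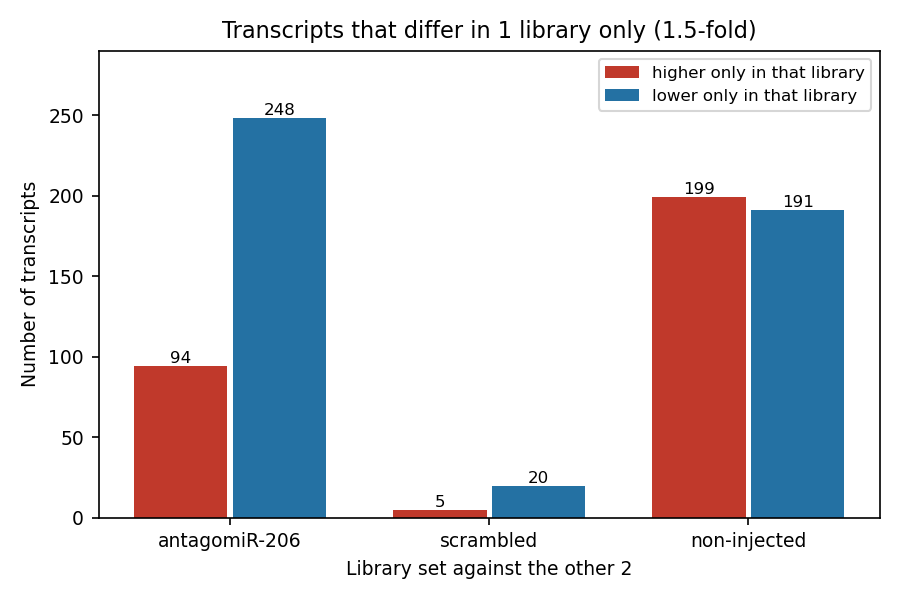
Number of transcripts higher only (red) or lower only (blue) in each library by the 1.5-fold rule, with TMM scaling. The antagomiR-206 library has 94 higher and 248 lower, the scrambled library 5 and 20, and the non-injected library 199 and 191.

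The identifiers themselves gave little more to describe. No member had the same 3 counts as another identifier (0 of 94), against 26 of the 10844 tested, so no member is a plain duplicate in the table. In 5 pairs of members all 3 counts were within 5% of each other, and 20 members had some identifier, member or not, within that distance. Listed next to another member were 2 of the 94. The matching shares over all tested transcripts were not computed, so neither near-equal counts nor neighbouring places can be called frequent or rare. The 123 tested transcripts listed next to a member had a median log2(CPM + 1) ratio of 0.04 over scrambled and 0.10 over non-injected somites. Over all those tested the medians were -0.01 and 0.01. The quartiles overlapped widely, at -0.21 and 0.18 over scrambled in both sets. Over non-injected somites they were -0.23 and 0.38 for the 123, against -0.34 and 0.32 for all tested. The difference was not tested, and no genome positions were used here. Identifier numbers from 40000 upward were held by 17 members (18.1%), against 16.5% of the tested transcripts, a share near the background. Among those lower only in antagomiR-206 the share was 36.7%, that is 91 of 248, and among those higher only in non-injected somites it was 31.2%, that is 62 of 199. The cutoff of 40000 was given no meaning here. The shares of the remaining lists were not computed, and these differences were not tested.

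The list was recomputed under other settings. With DESeq2 size factors all 94 members were kept and 11 others were added. With upper quartile scaling 90 were kept and 1 was added, and with library totals 90 were kept and 96 added. The number kept under all 3 of these scalings was 86. A pseudocount of 0.1 CPM kept 92 and added 31, while a pseudocount of 5 CPM kept 34 and added 3, since it shrinks the folds of rare transcripts. Of the 94, 61 averaged at least 10 CPM, and 67 had controls less than 1.2-fold apart.

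**Figure D5:**
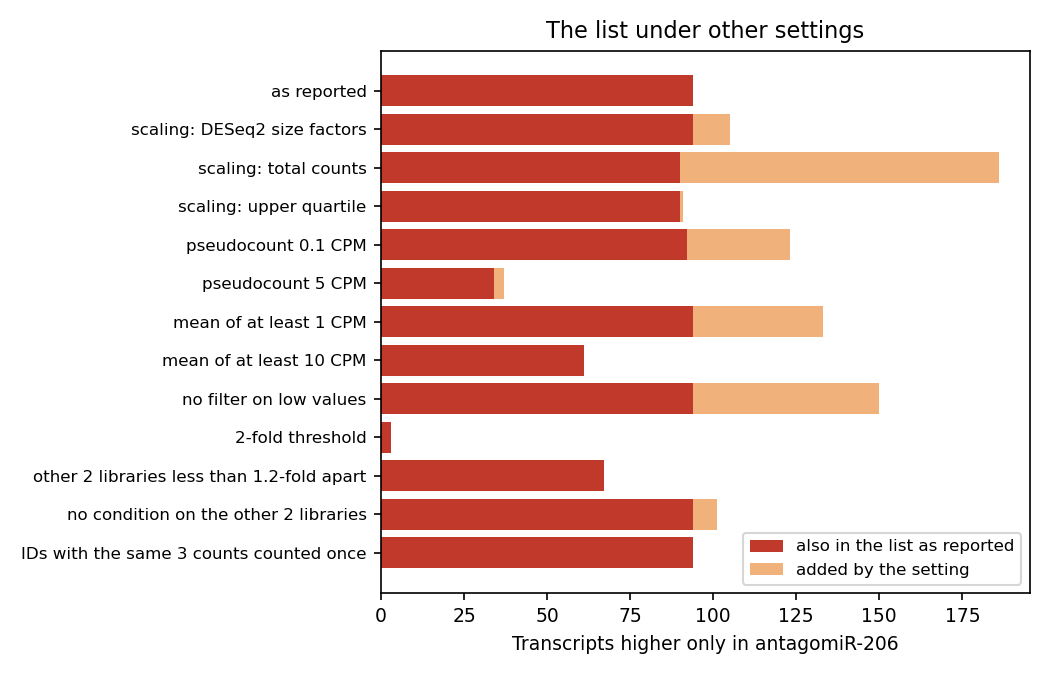
Number of transcripts higher only in antagomiR-206 under each setting, split into those also among the 94 (red) and those added (orange). The total runs from 3 at a 2-fold threshold to 186 with library totals.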

How the data were processed

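RNA of chick somites was sequenced in 3 libraries, 1 per group. Per the labels' protocols, total RNA was taken up in Trizol and libraries made with an Illumina mRNA kit were read from both ends, 50 nt per read. The deposited table holds whole-number counts per Ensembl transcript identifier, treated as raw because they were whole and their totals differed. Its columns are headed by abbreviations, which were matched to the sample titles by their letters. Aligner, counter, genome build and strand use were not given in the sources used here, so sharing of reads between isoforms or paralogs cannot be judged. Of the identifiers, 115 had 0 counts in all libraries.

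Library totals were scaled by TMM factors (edgeR 4.0.16 in R 4.3.3) of 1.05 with antagomiR-206, 0.995 with scrambled and 0.957 without injection, and counts were divided by these to give CPM. Ratios are log2(CPM + 1) differences. A count of 0 allows up to 3 counts, at most 0.173 CPM. Intervals are Clopper-Pearson (ratios) and Wilson (shares), computed with Python 3.11.15 and scipy 1.17.1. The computation of the rule was checked on simulated counts with known folds. These held counting error only, and the changed transcripts had more counts than most members. The check thus says nothing on differences between embryos or on how reliable the members are. Alternatives were scalings (DESeq2 1.42.0 size factors, upper quartile, library totals), pseudocounts, filters, thresholds, the condition on the controls, and identifiers with equal counts taken once. The members, lists and alternatives were chosen with earlier results of these data known. Named by rule were the member with the largest ratio to its nearer control and the one with the highest antagomiR-206 level. Fixed gene lists (tissue markers, chromatin remodelling subunits, reported targets) gave no result, since identifiers had no names here.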

Additional observations from a re-analysis of the deposited data

How the results depend on the processing

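Transcripts higher only in antagomiR-206, 94 as reported, numbered 186 with library totals, 37 with a pseudocount of 5 CPM, 61 with means of 10 CPM or more, 150 with no filter on low values and 3 past 2-fold. Those lower only in antagomiR-206 (248) numbered 140 with library totals, 123 with 5 CPM added, 26 past 2-fold and 162 with controls less than 1.2-fold apart. Those higher and lower only in scrambled (5 and 20) numbered 1 and 8 with 5 CPM added, 16 and 63 with means of 1 CPM or more, 3 and 9 with 10 CPM or more, 24 and 66 with no filter, and 0 and 2 past 2-fold. Those higher only in non-injected (199) numbered 115 with 5 CPM added, 308 with means of 1 CPM or more, 341 with no filter, 22 past 2-fold and 125 with the other libraries less than 1.2-fold apart. Those lower only in non-injected (191) numbered 316 with library totals, 82 with 5 CPM added and 3 past 2-fold. The other 45 of 72 recomputed counts stayed within 1.5 times the reported ones. Stricter filters, higher thresholds and a larger pseudocount shorten such lists mostly by construction. Library totals leave out the TMM factors (1.05 with antagomiR-206, 0.995 with scrambled, 0.957 without injection), which by arithmetic raises the antagomiR-206 ratios to both controls. Why these factors differ between the libraries was not tested. The median ratio of the list redrawn under each setting moved by more than the usual counting error of a single member in 2 of 36 cases. Both were for the 3 transcripts past 2-fold, at 1.05 over scrambled and 1.17 over non-injected. Each redrawn list was chosen by its ratios, which holds these medians in a narrow range, so small moves were largely built in. The counting error of a single member is also a wide measure for a median over many. Over the 94 themselves, the medians were 0.76 and 0.94 with library totals and 0.56 and 0.65 with 5 CPM added. Of 20 recomputed ratios of the 2 named transcripts, 4 moved past counting error and 0 changed sign, which neither a pseudocount nor these scalings can readily bring about. No paired analysis was possible because there was a single library for each group, and for the same reason no library could be left out. Depth limits the rarer members most, and 16 of 94 had counting intervals wholly above 1.5 in plain CPM against both controls. For that count, the share over all tested transcripts was not computed. The rule's own threshold of 1.5-fold, on CPM + 1, is for rare transcripts a higher cutoff than a fold of 1.5 in plain CPM.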
